A study of Rattus norvegicus with 9 samples.

Results

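Eph receptors are receptor tyrosine kinases, and ephrins are their ligands. The account covers 10 rat genes of this family, taken by symbol and not by a threshold on measured values: the receptors Epha2, Epha3, Epha4, Epha7, Ephb2 and Ephb4 and the ligands Efna1, Efna5, Efnb1 and Efnb2. They are 10 of the 21486 genes in the deposited table and 10 of the 22 Eph and ephrin genes it lists. RNA was sequenced from the tissue regrown within conduits that bridged a 2 cm gap in the rat sciatic nerve, taken 14 days after implantation. AFMC-AA-SP conduits carried spermidine (SP) on the surface of aligned fibres and L-ascorbic acid (AA) inside them, AFMC conduits held the same aligned fibres (AF) and lengthwise microchannels (MC) without the 2 molecules, and Hollow conduits had an empty lumen. Each conduit gave 3 libraries. Rat strain, age and sex, and whether each library came from its own animal, were not given in the sources used here, so p-values measure the spread between these libraries only. All 3 groups carried the same gap and a conduit, and no uninjured nerve or autograft entered these comparisons.

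Both partners of an Eph-ephrin pair are held on cell membranes, so the signal passes only where cells touch, and it can run into the cell with the receptor and back into the cell with the ephrin. Ephrin-A ligands are tied to the membrane by a lipid anchor and mostly bind EphA receptors, whereas ephrin-B ligands span the membrane and mostly bind EphB receptors. The system is known for repelling growth cones and for keeping cell populations apart. In cut rodent nerves, ephrin-B on fibroblasts acts on EphB2 of Schwann cells, which then sort from the fibroblasts and move as cords, a step that runs through the transcription factor Sox2 and N-cadherin (Cdh2).

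The ephrin-B ligands made up most of the ligand transcript measured here, and both had a lower mean in AFMC than in Hollow conduits. The 250 bases before their annotated starts are shown, from RefSeq on GRCr8, because of those levels, with the plus strand read for both genes. Both stretches lie wholly outside the annotated gene spans, which those of several other members do not, and the others are not printed. Capitals mark matches on either strand to CCAAT (read as ATTGG on the other strand) and to the E-box CANNTG, and no 2 matches overlapped.
Efnb1, chrX:68297279-68297528: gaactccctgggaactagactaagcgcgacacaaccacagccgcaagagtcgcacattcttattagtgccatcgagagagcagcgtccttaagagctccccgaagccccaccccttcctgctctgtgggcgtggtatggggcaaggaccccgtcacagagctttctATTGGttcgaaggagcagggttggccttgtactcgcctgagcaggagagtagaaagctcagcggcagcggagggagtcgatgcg
Efnb2, chr16:87484965-87485214: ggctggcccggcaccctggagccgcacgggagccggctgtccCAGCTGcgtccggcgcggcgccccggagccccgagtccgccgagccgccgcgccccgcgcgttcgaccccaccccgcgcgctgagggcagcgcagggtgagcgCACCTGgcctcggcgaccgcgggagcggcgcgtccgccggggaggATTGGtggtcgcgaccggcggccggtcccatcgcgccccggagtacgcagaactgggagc

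The Efnb1 stretch held 1 CCAAT match and no E-box, and 58.4% of its bases were G or C. The Efnb2 stretch held 1 CCAAT match and 2 E-boxes, and 80.4% of its bases were G or C, against a median of 51.2% over 33469 rat promoter stretches of the same length. Of those stretches 34.0% held CCAAT and 65.5% held an E-box. The GC box GGGCGG (30.5% of stretches) and TATAAA (12.9% of stretches) did not occur in either one. A match describes the letters and not a bound site. Of the 10 genes 9 had an entry in that table, and Epha4 did not.

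The libraries held 18314489 to 26074134 counted reads, and 15659 genes had enough reads to be tested, all 10 among them. Levels of 1 gene across libraries are given as CPM, reads scaled to the library total with TMM factors. Schwann cell markers were present in all libraries, as were markers of fibroblasts and endothelium. Sox10, the Schwann cell lineage's transcription factor, had 73.8 to 85.7 CPM in AFMC-AA-SP, 46.1 to 67.4 in AFMC and 82.7 to 84.7 in Hollow. Of the neuron and axon markers, Rbfox3 had at most 0.534 and Snap25 at most 0.571 CPM, whereas Prph had 2.58 to 6.58 CPM. The 10 markers of that list summed to 54.3 to 95.8 CPM. Rbfox3 and Snap25 were thus all but absent from tissue labelled nerve, whose neurons have their cell bodies outside the nerve. AFMC replicate 3 stood apart, at 72.3 on the first principal component (32.9% of the variance) with the other libraries between -23.5 and 9.93. Its summed B and plasma cell markers reached 1159 CPM, against 25.2 to 124 in the other libraries, and its summed Schwann cell markers, at 1927, were the lowest of the 9. Fold changes of named genes in comparisons with AFMC are therefore also given without that library, whereas list medians and counts are not. In bulk tissue, fewer cells of a type and less RNA per cell cannot be told apart.

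Levels of different genes can be compared only per length, for which the deposited FPKM values (fragments scaled to gene length and library total) were used. Efnb1, a transmembrane ligand of EphB receptors, had the highest FPKM of the family, with a mean of 32.6 FPKM over the 9 libraries (25.3 to 40.9). Ephb4, a receptor known from venous endothelium, was second at 21.0 FPKM (16.5 to 24.3) and was below Efnb1 in 9 of 9 libraries. Efnb2, the ephrin-B2 of arterial endothelium and the main partner of EphB4, followed at 9.37 FPKM (6.66 to 11.7). These 3 levels did not overlap between neighbours, so the order at the top held in every library.

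Below them the ranges ran into each other. Efna1, a ligand of EphA2 found on vessels and epithelia, had 8.05 FPKM (5.22 to 10.6), Ephb2, the EphB receptor of Schwann cells, 6.54 FPKM (4.49 to 7.64), Epha3, a receptor of mesenchymal and migrating cells, 5.50 FPKM (2.28 to 7.63) and Epha2, a receptor of epithelial and endothelial cells, 4.45 FPKM (3.55 to 5.04). From Efnb2 down to Epha2, each gene was higher than the next one in 6 or 7 of the 9 libraries, so neighbours in this order did not differ beyond their spread, while Efnb2 and Efna1 both lay above Epha2 in all 9 libraries. Efna5, an ephrin-A known for repelling axons, had 1.76 FPKM (1.25 to 2.80) and lay below Epha2 in all 9 libraries. Epha4, a receptor that binds both ephrin classes, had 1.43 FPKM (1.0 to 1.76) and overlapped with Efna5. Epha7, a receptor best known from the developing brain, was the lowest at 0.247 FPKM (0.147 to 0.323), which came from only 16 to 42 reads per library. The deposited FPKM values use 1 length per gene, 1158 bp for Efnb2 and 4106 bp for Ephb4, and the order between genes rests on those lengths.

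**Figure D1:**
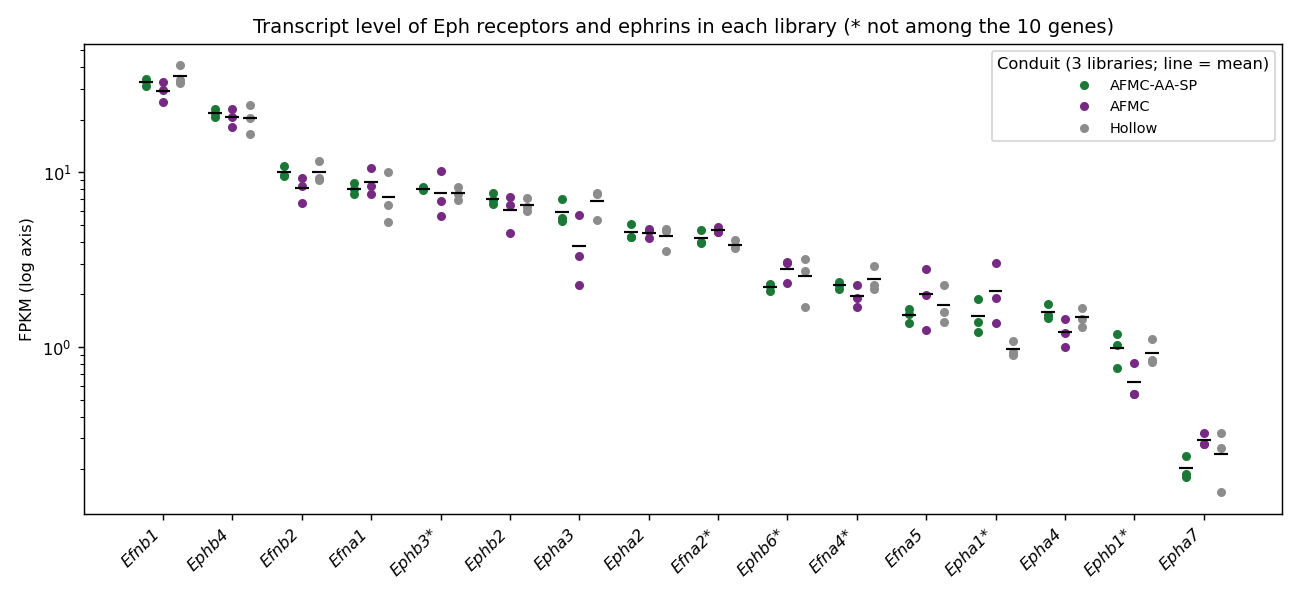
FPKM (log axis) of the 10 genes and, marked with an asterisk, of the 6 other family genes named in the text, in order of their mean over 9 libraries. Points are single libraries coloured by conduit, and black lines are the means of 3 libraries; Efnb1 and Ephb4 lie above all other genes and Epha7 lies lowest, at 0.147 to 0.323 FPKM.

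By class, the ephrin-B ligands summed to 43.1 ± 1.82 FPKM in AFMC-AA-SP, 37.6 ± 3.35 in AFMC and 46.0 ± 5.91 in Hollow (SD, n = 3 libraries each, 3 genes). The ephrin-A ligands summed to 16.2 ± 0.466, 17.6 ± 2.24 and 15.4 ± 3.56 FPKM in the same order of conduits (5 genes). Ligand transcript was thus mostly of the B class in each conduit, and Efnb1 alone gave 55.3%, 53.0% and 58.4% of all ephrin FPKM in AFMC-AA-SP, AFMC and Hollow.

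The receptors showed the same weight on the B class. EphB receptors summed to 40.2 ± 0.814 FPKM in AFMC-AA-SP, 37.8 ± 6.61 in AFMC and 37.9 ± 5.20 in Hollow (5 genes), and EphA receptors to 14.2 ± 1.13, 12.2 ± 1.92 and 14.4 ± 2.24 (SD, 9 genes). Ephb4 gave 40.2%, 41.6% and 38.8% of all Eph receptor FPKM in the 3 conduits. The libraries of the conduits overlapped for each class sum, with 1 exception: the ephrin-B sum was 34.9 to 41.4 FPKM in AFMC and 42.0 to 52.8 FPKM in Hollow, which do not overlap but come within 1 FPKM of each other. That separation was seen for the sum in FPKM, which carry no TMM factors. Taken singly, each ephrin-B gene overlapped between AFMC and Hollow, in FPKM as well as in CPM. A two-sided exact permutation test of 3 against 3 libraries cannot give a p below 0.1, and none is quoted for these sums.

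The first comparison named by the series, AFMC against Hollow, asks what the fibres and channels change. None of the 10 genes passed the test in it, and the Epha3 estimate was the largest. By edgeR's quasi-likelihood test with Benjamini-Hochberg adjustment over 15659 genes, 0 of the 10 genes had an adjusted p under 0.05, where the share among all genes was also 0.0%. At an unadjusted p under 0.05 there was 1 of 10, Epha3, against 19.5% of all genes (3055), and DESeq2, which called 1021 genes (7.08% of those it gave an adjusted p), called 0 of the 10. Libraries of the 2 groups did not overlap for 0 of the 10 genes, against 22.5% of all genes. Of the 10 fold changes 5 were positive and 5 negative, with a median of 0.02 on the log2 scale (0.01 over all tested genes).

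Epha3, of the EphA receptors, stood lowest in AFMC by its mean. Its CPM was 22.2, 17.4 and 17.1 in AFMC-AA-SP, 11.1, 18.8 and 7.70 in AFMC and 24.4, 17.4 and 23.8 in Hollow (replicates 1 to 3). AFMC replicates 1 and 3 lay below all other libraries, whereas AFMC replicate 2 fell inside the range of Hollow and of AFMC-AA-SP, so the groups overlap. The log2 fold change of AFMC over Hollow was -0.81 ± 0.29 (SE; 95% interval -1.46 to -0.16), with an adjusted p of 0.181 by edgeR and of 0.0729 by DESeq2. Epha3 therefore did not pass, and the value hangs on single AFMC libraries: without AFMC replicate 2 it was -1.22 (adjusted p = 0.0251 by edgeR), and without AFMC replicate 3 it was -0.56 (adjusted p = 0.340). Leaving out AFMC replicate 2 also took edgeR's calls over all genes from 0 to 894. Over the 9 libraries Epha3 was also the most variable of the 10 genes, with a highest FPKM 3.35 times the lowest and a spread of log2 CPM at the 87.8th percentile of tested genes, where Epha2 stood at the 31.9th.

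The makeup of the EphA class differed in the same libraries. Epha3 made up 39.7% to 45.4% of EphA FPKM in AFMC-AA-SP, 19.8% to 39.8% in AFMC and 45.4% to 48.2% in Hollow. In AFMC replicate 3 it gave 19.8%, below the 41.2% of Epha2 and the 26.2% of Epha1. Epha3, on chromosome 11 at 1140985 to 1473900 (minus strand, as listed in the deposited table, whose genome build was not given in the sources used here), kept a log2 fold change of -0.80 when each library was corrected for a trend with gene length. Spearman's rho of gene length with log2 CPM, less each gene's mean over the 9 libraries, measures that trend. It was -0.307, -0.034 and -0.191 in AFMC replicates 1 to 3 and 0.014 to 0.248 in the other libraries. All AFMC libraries thus lay below all others in this trend, which enters both comparisons with AFMC.

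Summed Schwann cell markers moved with these libraries. The 15 markers summed to 2863 to 3316 CPM in AFMC-AA-SP, 1927 to 3047 in AFMC and 2992 to 4473 in Hollow, lowest in AFMC replicates 3 (1927) and 1 (2635), the same 2 libraries in which Epha3 was low, and 15 of 15 had a negative fold change in AFMC against Hollow (median -0.55). Perineurial markers were 5 of 6 negative (median -0.36) and adipocyte markers 8 of 8 negative (median -0.49). Fibroblast markers had 7 of 12 positive (median 0.03) and endothelial markers 9 of 12 positive (median 0.14), so neither stood far from 0. Neutrophil markers had 10 of 10 positive (median 2.66), with sums of 486 to 662 CPM in AFMC-AA-SP, 738 to 1513 in AFMC and 288 to 437 in Hollow. T and NK cell markers (8 of 8, median 1.31) and B and plasma cell markers (6 of 6, median 2.11) were positive as well. The part of any of these cells in the Epha3 values was not tested.

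**Figure D2:**
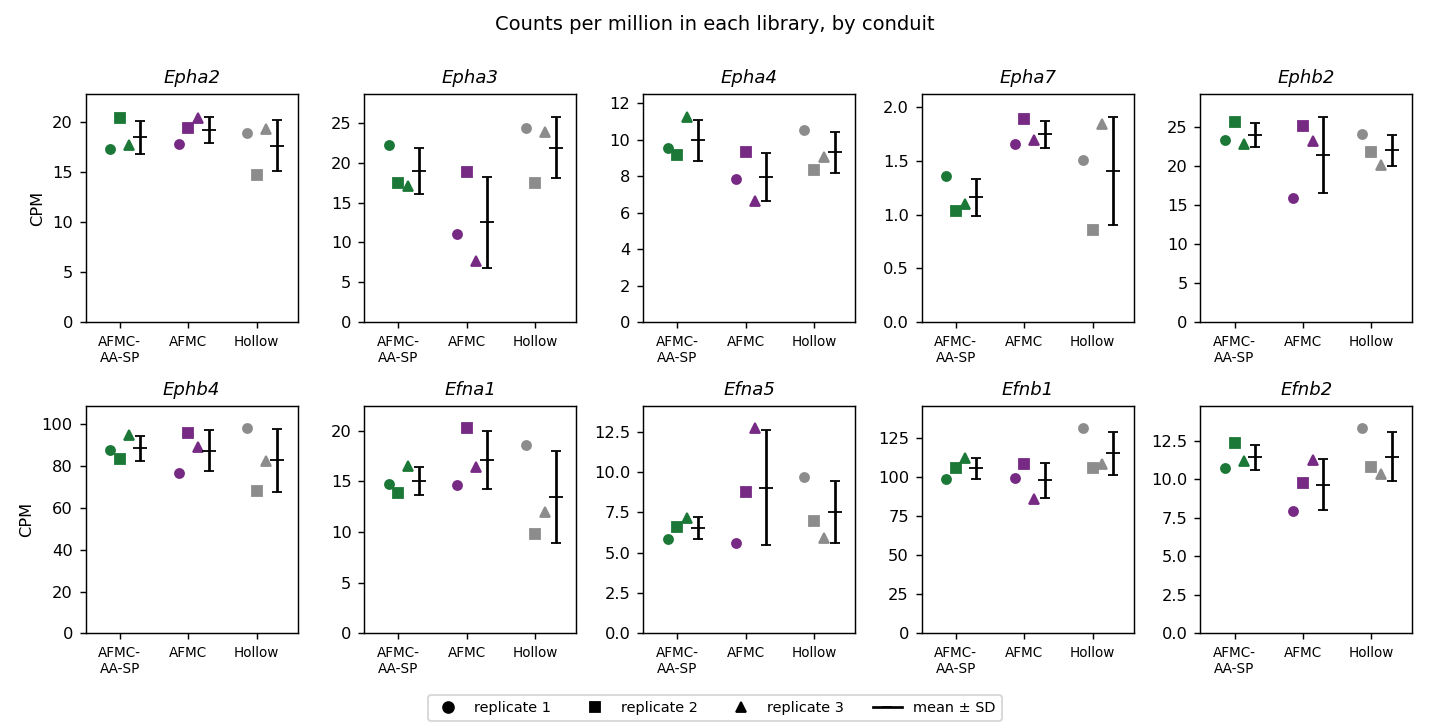
CPM of the 10 genes in each library, 1 panel per gene with its own axis starting at 0; circles, squares and triangles are replicates 1, 2 and 3, and black bars give the mean ± SD of 3 libraries. Epha3 is low in AFMC replicates 1 and 3 (11.1 and 7.70 CPM) but not in replicate 2 (18.8 CPM), and in the other panels the conduits overlap apart from Epha7 between AFMC-AA-SP and AFMC.

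The other EphA receptors lay closer together. Epha4 had 9.54, 9.13 and 11.2 CPM in AFMC-AA-SP, 7.86, 9.30 and 6.66 in AFMC and 10.5, 8.35 and 9.05 in Hollow. Its 2 lowest values were again AFMC replicates 3 and 1, but AFMC replicate 2 was above 2 of the Hollow libraries. The log2 fold change of AFMC over Hollow was -0.23 ± 0.16 (SE), and it was -0.12 without AFMC replicate 3 and -0.11 with the length correction. Epha2 had 17.3, 20.4 and 17.6 CPM in AFMC-AA-SP, 17.8, 19.4 and 20.4 in AFMC and 18.9, 14.7 and 19.3 in Hollow, and its log2 fold change was 0.12 ± 0.12 (SE) for AFMC over Hollow. The 95% interval of Epha2, -0.16 to 0.40, lay within a log2 change of 0.5 either way.

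EphB receptors differed little in mean between AFMC and Hollow. Ephb2 had 23.3, 25.6 and 22.7 CPM in AFMC-AA-SP, 15.9, 25.0 and 23.2 in AFMC and 24.1, 21.7 and 20.1 in Hollow. AFMC replicate 1 was the only low library, and the log2 fold change of -0.04 ± 0.16 (SE; 95% interval -0.40 to 0.32) became 0.14 without it. Ephb4 had 87.6, 83.2 and 95.0 CPM in AFMC-AA-SP, 76.8, 96.1 and 89.1 in AFMC and 98.1, 68.0 and 82.4 in Hollow. Its lowest and highest values were both from Hollow, and the log2 fold change of AFMC over Hollow was 0.07 ± 0.14 (SE; 95% interval -0.23 to 0.38). For both receptors a doubling (a log2 change of 1) lies outside the interval.

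The 2 ephrin-B ligands among the 10 genes had negative estimates of like size. Efnb1 had 99.0, 106 and 112 CPM in AFMC-AA-SP, 99.3, 108 and 85.9 in AFMC and 131, 106 and 108 in Hollow, where Hollow replicate 1 was the highest and AFMC replicate 3 the lowest. The log2 fold change of AFMC over Hollow was -0.23 ± 0.11 (SE; adjusted p = 0.288 by edgeR), and -0.15 without AFMC replicate 3. Efnb2 had 10.7, 12.3 and 11.2 CPM in AFMC-AA-SP, 7.94, 9.73 and 11.2 in AFMC and 13.3, 10.8 and 10.3 in Hollow. Its 2 lowest values were AFMC replicates 1 and 2, and its log2 fold change was -0.25 ± 0.15 (SE; adjusted p = 0.396 by edgeR), or -0.38 without AFMC replicate 3. Neither ligand passed the test, and AFMC and Hollow overlapped for each of them in CPM and in FPKM. Only the ephrin-B sum in FPKM, above, which carries no TMM factors, did not overlap. Summed arterial endothelial markers were 459 to 537 CPM in AFMC-AA-SP, 337 to 447 in AFMC and 516 to 577 in Hollow. Of these 8 markers, 4 had a negative and 4 a positive fold change in AFMC against Hollow (median log2 fold change -0.06). Their part in the Efnb2 value was not tested.

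Efna1 and Efna5 had positive estimates with wide errors. Efna1 had 14.7, 13.8 and 16.5 CPM in AFMC-AA-SP, 14.6, 20.2 and 16.4 in AFMC and 18.6, 9.84 and 12.0 in Hollow, and its log2 fold change was 0.34 ± 0.22 (SE) for AFMC over Hollow. Hollow alone held both a high and a low library for this ligand. Efna5 had 5.86, 6.60 and 7.18 CPM in AFMC-AA-SP, 5.61, 8.76 and 12.7 in AFMC and 9.69, 6.95 and 5.93 in Hollow. AFMC spanned the whole range of this gene, and its log2 fold change of 0.26 ± 0.29 (SE) became -0.07 without AFMC replicate 3. Epha7, the lowest receptor, had a log2 fold change of 0.30 ± 0.29 (SE) in this comparison. Without AFMC replicate 3 the log2 fold changes of AFMC over Hollow were 0.36 for Efna1, 0.33 for Epha7, 0.08 for Epha2, 0.06 for Ephb4 and -0.11 for Ephb2, and by edgeR 0 of the 10 genes were called.

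The second comparison named by the series, AFMC-AA-SP against AFMC, asks what loading with spermidine and ascorbic acid adds. By edgeR, 0 of the 10 genes passed at an adjusted p under 0.05 (0.0% of all genes) and 0 of 10 at an unadjusted p under 0.05 (17.3% of all genes, 2708), and DESeq2 called 0 of 10 (4.12% of the genes it gave an adjusted p, 594). Groups did not overlap for 1 of the 10 genes, Epha7, against 22.8% of all genes. Of the fold changes 6 were positive and 4 negative, with a median of 0.07 (-0.01 over all tested genes). This comparison uses the same AFMC libraries as the first, so an AFMC library that is low for a gene enters both, with opposite signs.

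Epha3 had the largest log2 fold change here as well, 0.60 ± 0.29 (SE; 95% interval -0.06 to 1.25; adjusted p = 0.323 by edgeR). AFMC-AA-SP libraries held 17.1 to 22.2 CPM of it and AFMC libraries 7.70 to 18.8. Without AFMC replicate 2 the value was 1.01 (adjusted p = 0.0477 by edgeR, in a fit that called 579 of all genes), and without AFMC replicate 3 it was 0.35 (adjusted p = 0.546). The same single libraries thus set the size of the Epha3 value in both comparisons. Several marker lists moved in this comparison too. Schwann cell markers were 14 of 15 positive (median log2 fold change 0.49), adipocyte markers 8 of 8 (1.37) and perineurial markers 5 of 6 (0.30), while neutrophil markers were 10 of 10 negative (-1.35), T and NK cell markers 8 of 8 (-0.85) and B and plasma cell markers 6 of 6 (-2.71). Their part in the Epha3 value was not tested.

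Epha7 had 1.36, 1.03 and 1.10 CPM in AFMC-AA-SP, 1.66, 1.89 and 1.69 in AFMC and 1.51, 0.856 and 1.84 in Hollow. All AFMC-AA-SP libraries lay below all AFMC libraries, while Hollow covered both. The log2 fold change of AFMC-AA-SP over AFMC was -0.59 ± 0.30 (SE; 95% interval -1.26 to 0.09; adjusted p = 0.345 by edgeR), on 20 to 28 reads per library in AFMC-AA-SP and 34 to 42 in AFMC. The interval is wide at that depth.

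The other 8 genes had smaller values. On the log2 scale they were 0.33 ± 0.16 for Epha4, 0.25 ± 0.15 for Efnb2, 0.16 ± 0.16 for Ephb2, 0.11 ± 0.11 for Efnb1, 0.02 ± 0.14 for Ephb4, -0.06 ± 0.12 for Epha2, -0.19 ± 0.22 for Efna1 and -0.46 ± 0.29 for Efna5 (SE). The Efna5 value was -0.13 without AFMC replicate 3, whose 12.7 CPM is the highest of the 9 libraries. Without it the others were 0.37 for Efnb2, 0.23 for Ephb2, 0.22 for Epha4, 0.04 for Ephb4, 0.02 for Efnb1, -0.01 for Epha2, -0.21 for Efna1 and -0.61 for Epha7. Each of the 8 intervals with all libraries includes 0, which does not show that the loaded and unloaded conduits were alike.

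**Figure D3:**
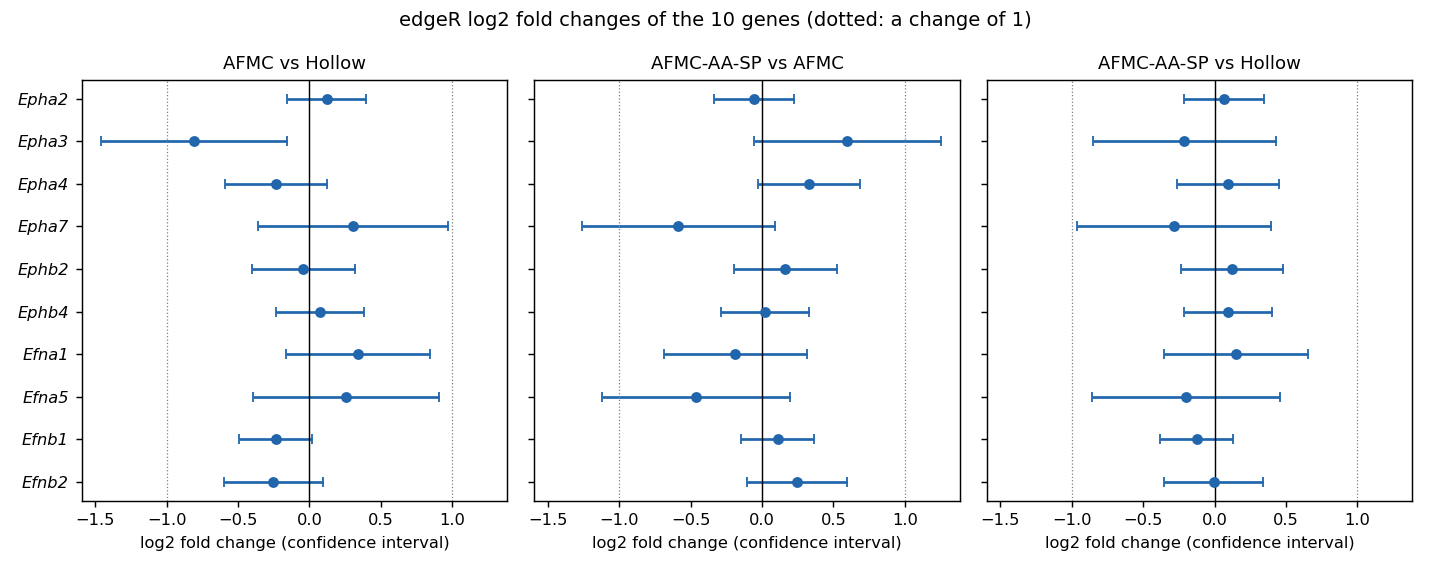
Log2 fold changes by edgeR with 95% intervals for the 10 genes, in 3 panels of 1 comparison each; the solid line is no change and dotted lines mark a log2 change of 1 either way. The interval of Epha3 in AFMC over Hollow (-1.46 to -0.16) is the only one that leaves out 0, before adjustment, and the right panel, AFMC-AA-SP over Hollow, has the estimates nearest to 0.

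AFMC-AA-SP against Hollow completes the set. The 10 estimates lay between -0.28 (Epha7) and 0.15 (Efna1), with Epha3 at -0.21 ± 0.28 and Efnb2 at -0.01 ± 0.15 (SE). By edgeR 0 of 10 passed at an adjusted p under 0.05 (0.0% of all genes), 0 of 10 at an unadjusted p under 0.05 (3.24% of all genes, 507), and DESeq2 called 0 of 10 (0.0512% of the genes it gave an adjusted p, 8). Groups did not overlap for 0 of 10, against 10% of all genes. The median was 0.03 with 5 positive and 5 negative (0.00 over all tested genes).

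The intervals bound the size of any change. Of the 30 intervals (10 genes in 3 comparisons), 26 lay wholly within a log2 change of 1 either way and 13 within 0.5. The 4 that reached past 1 were Epha3 in both comparisons with AFMC, and Epha7 and Efna5 in AFMC-AA-SP against AFMC. For Efnb1, Ephb4, Ephb2, Efnb2, Efna1, Epha2 and Epha4 a doubling or a fall of that size therefore lay outside the 95% interval in each comparison.

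**Figure D4:**
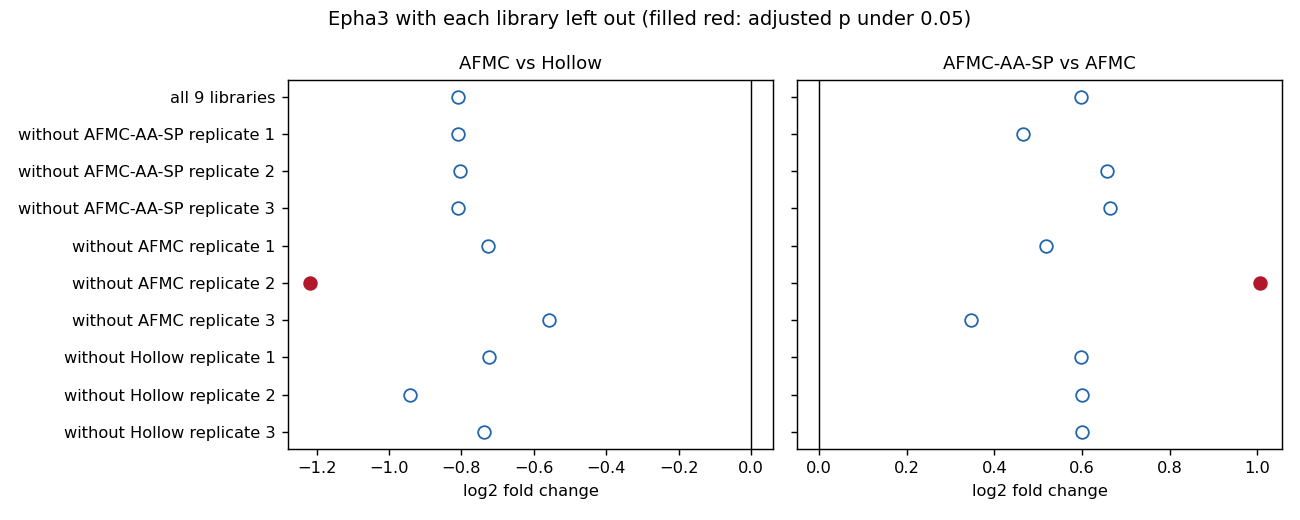
Log2 fold change of Epha3 by edgeR with all 9 libraries and with each library left out in turn, for AFMC over Hollow (left) and AFMC-AA-SP over AFMC (right); filled red points have an adjusted p under 0.05. Only leaving out AFMC replicate 2 passes the threshold, at -1.22 and 1.01, and leaving out AFMC replicate 3 brings both values nearest to 0 (-0.56 and 0.35).

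The remaining 12 family genes in the table were examined in the same fits. Of these 9 were tested, with Epha6, Epha8 and Efna3 too low, and by edgeR 0 of 9 passed at an adjusted p under 0.05 in each comparison. In AFMC against Hollow 2 of the 9 had an unadjusted p under 0.05, both higher, beside 19.5% of all genes. Epha1, an EphA receptor known from epithelia, had 6.24, 4.03 and 4.77 CPM in AFMC-AA-SP, 4.82, 6.60 and 10.6 in AFMC and 3.60, 3.05 and 3.12 in Hollow. All AFMC libraries and all AFMC-AA-SP libraries lay above all Hollow libraries. Its log2 fold change of AFMC over Hollow was 1.17 ± 0.29 (SE; adjusted p = 0.117 by edgeR, 0.0101 by DESeq2), or 0.80 without AFMC replicate 3 (adjusted p = 0.238 by edgeR), and that of AFMC-AA-SP over Hollow was 0.62 ± 0.29 (SE; adjusted p = 1.0). Between AFMC-AA-SP and AFMC it was -0.55 ± 0.29, or -0.18 without AFMC replicate 3.

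The share of Epha1 in EphA FPKM was 8.79% to 12.2% in AFMC-AA-SP, 12.8% to 26.2% in AFMC and 6.02% to 7.60% in Hollow, the reverse order of Epha3. Both are shares of the same EphA sum, so a lower Epha3 level raises the Epha1 share by arithmetic alone. Efna2, an ephrin-A, had a log2 fold change of 0.33 ± 0.13 for AFMC over Hollow (SE; adjusted p = 0.219 by edgeR) with groups that did not overlap, at 5.53 to 5.79 CPM in AFMC and 4.26 to 4.76 in Hollow. Ephb1, an EphB receptor, had 0.60 ± 0.24 for AFMC-AA-SP over AFMC (SE; adjusted p = 0.259 by edgeR) and -0.51 ± 0.24 for AFMC over Hollow, with CPM of 3.44 to 5.34 in AFMC-AA-SP, 2.57 to 3.79 in AFMC and 3.73 to 5.14 in Hollow. None of these 3 passed edgeR's test in any comparison. Ephb3, Ephb6 and Efna4, the others of at least 1 FPKM, had log2 fold changes of AFMC over Hollow of 0.05 ± 0.18, 0.20 ± 0.22 and -0.27 ± 0.19 (SE), and of AFMC-AA-SP over AFMC of 0.04 ± 0.18, -0.41 ± 0.22 and 0.15 ± 0.19. Without AFMC replicate 3 the values of AFMC over Hollow were 0.33 for Efna2, -0.42 for Ephb1, 0.10 for Ephb3, 0.11 for Ephb6 and -0.40 for Efna4, and those of AFMC-AA-SP over AFMC were 0.51 for Ephb1, -0.02 for Ephb3, -0.33 for Ephb6 and 0.28 for Efna4. A sheet the authors deposited beside the gene table gives FPKM of 28 guidance receptors in AFMC and Hollow, 9 of them EphA genes and 4 of them among the 10, and 54 of its 54 EphA values equal those used here within 0.0001 FPKM.

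Genes that act with or below the receptors were taken from a list of 47, all of which were tested. By edgeR 0 of 47 had an adjusted p under 0.05 in each comparison. At an unadjusted p under 0.05, AFMC against Hollow had 6 higher and 12 lower (18 of 47, beside 19.5% of all genes) with a median log2 fold change of -0.02. AFMC-AA-SP against AFMC had 9 higher and 3 lower with a median of 0.05 (12 of 47, beside 17.3% of all genes), and AFMC-AA-SP against Hollow had 0 higher and 1 lower, Rin1, an endocytic regulator of EphA4, at -0.29 ± 0.12 (SE; adjusted p = 1.0), beside 3.24% of all genes. DESeq2 called 9 of the 47 in AFMC against Hollow, beside 7.08% of the genes it gave an adjusted p, 8 in AFMC-AA-SP against AFMC, beside 4.12%, and 0 in AFMC-AA-SP against Hollow, beside 0.0512%.

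Sox2, the transcription factor through which EphB2 acts in Schwann cells, had 29.5, 31.6 and 25.8 CPM in AFMC-AA-SP, 17.5, 18.5 and 14.6 in AFMC and 29.0, 24.7 and 28.5 in Hollow. All AFMC libraries lay below all others. Its log2 fold change was -0.70 ± 0.12 for AFMC over Hollow (SE; adjusted p = 0.102 by edgeR, 0.000248 by DESeq2) and 0.78 ± 0.12 for AFMC-AA-SP over AFMC (adjusted p = 0.0864 by edgeR), 2 values that share the AFMC libraries. Without AFMC replicate 3 they were -0.61 and 0.69, and without AFMC replicate 2 they were -0.77 and 0.85 and passed by edgeR (adjusted p = 0.0238 and 0.0234). The fit without AFMC replicate 2 called 894 and 579 of all genes in the 2 comparisons. Ephb2 itself had -0.04 ± 0.16 and 0.16 ± 0.16 (SE) in the 2 comparisons, and Cdh2, the N-cadherin below Sox2, had -0.43 ± 0.20 and 0.33 ± 0.20 (SE) with overlapping groups, or -0.40 and 0.30 without AFMC replicate 3. Sox2 is also a gene of repair Schwann cells, whose markers had negative fold changes in AFMC against Hollow as given above, and their part in the Sox2 values was not tested.

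Rock1 and Rock2, the kinases through which RhoA collapses growth cones, were also lowest in AFMC. Rock1 had 95.5, 94.8 and 94.0 CPM in AFMC-AA-SP, 62.0, 76.2 and 71.4 in AFMC and 99.3, 103 and 91.5 in Hollow, and Rock2 had 179, 176 and 182 CPM in AFMC-AA-SP, 121, 148 and 108 in AFMC and 192, 196 and 178 in Hollow. All AFMC libraries of both genes lay below all others. For AFMC over Hollow the log2 fold changes were -0.49 ± 0.09 and -0.59 ± 0.11, and for AFMC-AA-SP over AFMC 0.44 ± 0.09 and 0.51 ± 0.11 (SE; adjusted p from 0.102 to 0.120 by edgeR). DESeq2 called both genes in both comparisons. With the length correction the values shrank to -0.39 and 0.34 for Rock1 and to -0.42 and 0.34 for Rock2. Without AFMC replicate 3 the values were -0.51 and 0.46 for Rock1 and -0.49 and 0.41 for Rock2. Without AFMC replicate 2 both genes passed by edgeR in both comparisons, at -0.56 and 0.51 for Rock1 and -0.72 and 0.64 for Rock2 (adjusted p from 0.0153 to 0.0280). Over all genes, 894 and 579 passed in the same fit.

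Genes in the other direction included Rgs3, which carries signals back from ephrin-B, with 0.29 ± 0.07 for AFMC over Hollow and -0.31 ± 0.07 for AFMC-AA-SP over AFMC (SE), and Ptpn1, a phosphatase that acts on Eph receptors, with 0.52 ± 0.14 and -0.46 ± 0.14. Lyn, a kinase of the Src family and of blood cells, had 0.40 ± 0.13 for AFMC over Hollow, and Cdk5, a kinase in the ephexin pathway below EphA4, had -0.18 ± 0.08 for AFMC-AA-SP over AFMC (SE). Their adjusted p by edgeR lay between 0.115 and 0.287. DESeq2 called Rgs3 in both comparisons and Ptpn1 in AFMC against Hollow. Ptpn1 reached 208 CPM in AFMC replicate 3, against 137 and 141 in the other AFMC libraries and 109 to 120 elsewhere. Without that library its log2 fold changes were 0.30 for AFMC over Hollow and -0.24 for AFMC-AA-SP over AFMC, those of Rgs3 were 0.25 and -0.28, that of Lyn was 0.31 and that of Cdk5 -0.18. Without AFMC replicate 2, edgeR called Rgs3 in both comparisons (0.35 and -0.37, adjusted p = 0.0251 and 0.0259) and Ptpn1 in AFMC against Hollow (0.63, adjusted p = 0.0472). These were among 894 genes called in AFMC against Hollow and 579 in AFMC-AA-SP against AFMC.

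**Figure D5:**
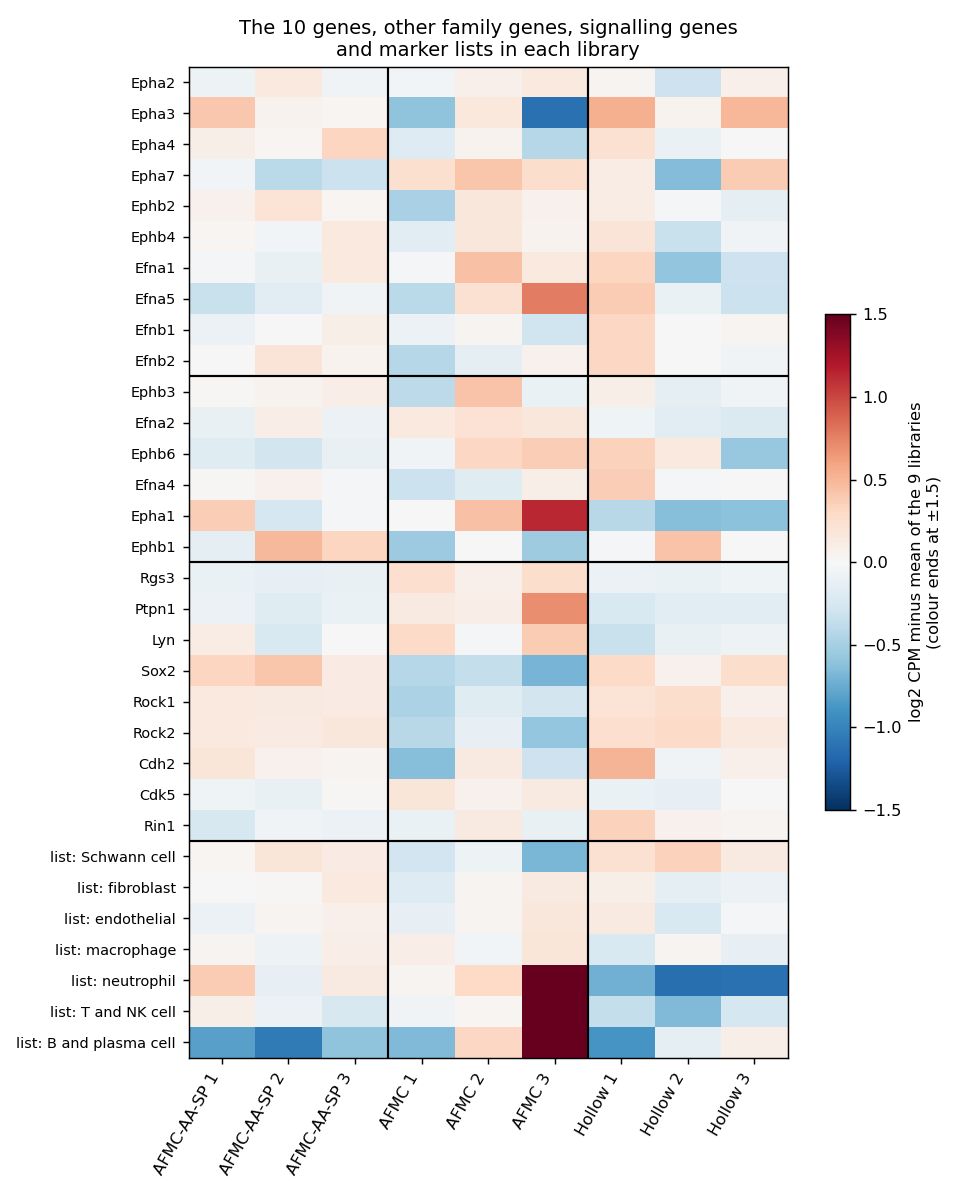
Log2 CPM of each gene minus its mean over the 9 libraries (colour, ending at 1.5 either way), with libraries in columns by conduit. From the top are the 10 genes, other family genes, signalling genes and the means of some marker lists. The lists drawn are Schwann cell, fibroblast, endothelial, macrophage, neutrophil, T and NK cell, and B and plasma cell. AFMC replicate 3 has the highest neutrophil, T and NK cell and B and plasma cell rows and the lowest Schwann cell row, and Epha3 is lowest in AFMC replicates 3 and 1.

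For each of the 10 genes the genes nearest in pattern were looked up, by Pearson's r of log2 CPM over the 9 libraries. The search covered 14305 genes of at least 1 CPM, less those without a symbol or with a placeholder symbol such as LOC. Epha3 was nearest to Zmynd11 and Atp8a2 (r = 0.973 for both), Epha4 to Lhfpl6 (0.985) and Gria4 (0.956), Epha2 to Minpp1 (0.925) and Kank3 (0.911), and Epha7 to B3gnt2 (0.966) and Mob2 (0.955). Among EphB receptors, Ephb2 was nearest to Pde4d (0.943) and Arl5b (0.939) and Ephb4 to Pdgfrl (0.969) and Als2cl (0.952). Among ligands, Efnb1 was nearest to Itga8 (0.980) and Samd4a (0.964), Efnb2 to Elk4 (0.975) and Mettl4 (0.963), Efna1 to Kcnj8 (0.945) and Rab3a (0.926), and Efna5 to Prr5 (0.980) and Strbp (0.970). None of the 20 was another Eph or ephrin gene. These are the highest of many values over 9 libraries that share conduits and one library that stands apart, and they describe likeness of pattern only.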

How the data were processed

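RNA of conduit tissue was converted to strand-specific poly(A) libraries and sequenced from both ends, per the labels' protocols. The authors deposited 1 gene table with raw whole-number counts and FPKM for each library, per the file headers. Dividing the deposited counts by FPKM and library total implies 1 length per gene, which differed by at most 0.009% between libraries for genes above 1 FPKM. The aligner, counter, annotation and genome build were not given in the sources used here. Each sample column used was matched to a sample by its name, and 0 rows lacked a gene identifier.

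The model used was edgeR 4.0.16 in R 4.3.3. The function filterByExpr kept 15659 genes, TMM factors scaled libraries, and a quasi-likelihood model with 1 term per conduit was fitted to all 9 libraries (common biological coefficient of variation 0.197). Calls needed an adjusted p under 0.05 (Benjamini-Hochberg over all tested genes, two-sided) and no minimum fold. The SE is the log2 fold change divided by the square root of F, and intervals are at 95%. CPM use TMM-scaled totals. Other settings were upper-quartile and RLE factors, no filter on low counts or a filter of 1 CPM in 3 libraries, a fit of only the 2 groups compared, DESeq2 1.42.0, limma 3.58.1 on log2(FPKM + 1) and log2(FPKM + 0.1), an offset for each library's trend with gene length, the replicate block, and each library left out in turn. The fits were tested on simulated data. Counts are reads without molecular identifiers.

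The 10 genes are those under study and were all described. Other family genes were named at a mean of at least 1 FPKM or an unadjusted p under 0.05. Of the 47 signalling genes, the 3 of smallest p in each direction with an unadjusted p under 0.05 were named per comparison, with Sox2 and Cdh2 always. For likeness, the 2 genes of highest r were named. Genes without a symbol, or with one beginning with LOC, AABR, AC, RGD or ENS, were left out first. The members, the lists and the tests were chosen with earlier results of these data known. Promoter sequences came from RefSeq (GRCr8), and no coordinates were moved between builds.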

Additional observations from a re-analysis of the deposited data

How the results depend on the processing

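With 3 libraries per conduit, 13 of the 30 intervals of the 10 genes lay within a log2 change of 0.5, and Epha7 rested on 16 to 42 reads per library. Over all genes edgeR called 0 in each comparison. DESeq2 called 1021 in AFMC against Hollow (409 higher, 612 lower), 594 in AFMC-AA-SP against AFMC (466 higher, 128 lower) and 8 in AFMC-AA-SP against Hollow. In AFMC against Hollow 1 gene was called by limma on log2(FPKM + 0.1). In AFMC-AA-SP against AFMC 6 were called with no filter on low counts. In AFMC-AA-SP against Hollow 1 was called by limma with either pseudocount. When AFMC replicate 3 was left out under the length offset, an alternative chosen after seeing the data, 2 were called in AFMC-AA-SP against AFMC and 1 in AFMC-AA-SP against Hollow. Leaving out 1 library gave 0 to 894 calls in AFMC against Hollow, 0 to 579 in AFMC-AA-SP against AFMC and 0 to 1 in AFMC-AA-SP against Hollow, with both maxima in the first 2 comparisons reached without AFMC replicate 2. Of the 10 genes 0 to 1 was then called in the first 2 comparisons, the 1 being Epha3 without AFMC replicate 2, and 0 under every other alternative run.

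The libraries' shared replicate numbers did not pair them: correlations of same-numbered deviations ran from -0.05 to 0.14, and not every one passed 0.1. The fit with the replicate block called 1 gene in AFMC against Hollow and 2 in AFMC-AA-SP against AFMC, with or without the length offset, and none of the 10. Epha3 was -0.85 and 0.62 in it.

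Signs turned for estimates near 0. In AFMC-AA-SP against AFMC, Epha2 was 0.0022 and 0.0023 by limma with the larger and the smaller pseudocount. Ephb4 was -0.031 with the length offset, -0.036 with the block added and -0.0058 with the offset and without AFMC replicate 3, and Ephb3 was -0.013 and -0.055 with the offset and with the offset without that library. In AFMC against Hollow, Efna5 was -0.021 with the offset without AFMC replicate 3, and Ephb3 was -0.031 and -0.039 by limma. In AFMC-AA-SP against Hollow, Efnb2 was 0.0049 and 0.0058 by limma. With 1 library left out, the range was -0.17 to 0.14 for Ephb2, -0.044 to 0.21 for Ephb4, -0.074 to 0.52 for Efna5, -0.21 to 0.22 for Ephb3 and -0.026 to 0.39 for Ephb6 in AFMC against Hollow. In AFMC-AA-SP against AFMC it was -0.013 to 0.29 for Ephb2, -0.063 to 0.096 for Ephb4 and -0.13 to 0.30 for Ephb3. In AFMC-AA-SP against Hollow it was -0.042 to 0.14 for Epha2, -0.022 to 0.24 for Ephb4, -0.022 to 0.46 for Efna1, -0.34 to 0.023 for Efna5 and -0.071 to 0.12 for Efnb2. Epha3 kept its direction in every alternative run, at -1.22 to -0.56 for AFMC over Hollow and 0.35 to 1.01 for AFMC-AA-SP over AFMC with 1 library left out. The causes were not tested.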
